A study of Mus musculus with 7 samples.

Results

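The genes described here encode the protein parts of the cytosolic ribosome, the particle that translates messenger RNA. They were taken from the deposited table by symbol: names starting with Rpl or Rps and a digit, together with Rplp0, Rplp1, Rplp2 and Rpsa, without the Rps6k kinases and symbols that contain -ps. This gave 87 symbols of the 25791 named loci in the table, which lists 35534 loci in all. Of the 87, 84 exceeded 1 FPKM (mapped fragments scaled to the length of the transcript and to the size of the library) in at least 1 group, as did 14262 of all named loci. Of these 84, 77 were core ribosomal proteins, 46 of the large 60S subunit and 31 of the small 40S subunit. The other 7 were paralogs or retrogenes and Rps19bp1, which the symbol rule takes in although it encodes a protein that binds RPS19 and no ribosomal subunit.

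The tissue was gonadal adipose tissue of male CD1 pups on postnatal day 21. The 4 BDE-47 exposed pups came from dams fed 2,2',4,4'-tetrabromodiphenyl ether, a brominated flame retardant, at 0.2 mg/kg body weight per day in tocopherol-stripped corn oil, and the 3 control pups from dams fed that oil alone. Dosing of the dams ran from pregnancy day 8 to postpartum day 21 in both groups, and each pup was from a different litter. A further control library, with fewer reads, had been left out by the authors. The table holds 1 FPKM value per locus and group, made by the authors from all libraries of that group. The spread between pups and the depth of each library are therefore unknown here, no test across pups was made, and every difference below is a difference between these 2 group values only.

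In every cell, 1 copy of each core protein goes into each ribosome, apart from the acidic stalk proteins, which are present in several. Messenger RNAs for these proteins are abundant and short, and start with a run of pyrimidines, the terminal oligopyrimidine (TOP) motif, through which the kinase mTOR controls their translation. Their genes often carry small nucleolar RNAs in introns, and mammalian genomes hold many processed pseudogenes copied from their mRNAs. White adipose tissue holds adipocytes, vessels and immune cells, and all of them express these genes.

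The RNA of nearly all ribosomal protein genes was slightly lower in BDE-47 exposed fat. Expressed as BDE-47 over control, the median log2 ratio was −0.165 over the 84 loci (interquartile range −0.23 to −0.09), and the whole set lay between −0.46 and 0.06. The group value was lower in BDE-47 in 77 of the 84, where 47.3% of all 14262 named loci were lower. It was higher in 5, where 50.8% of all named loci were higher, and equal in 2. These counts depend on the scale: with each group rescaled to the sum of its FPKM, the median was −0.078, with 66 lower and 18 higher.

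The shift was small for each gene. At least 1.2-fold lower values were found at 14 of the 84 loci, which is close to the background, since 17.7% of all named loci were that much lower. This count was 5 of 84 after rescaling to the sum, and 5 of the 46 loci left without genes that have more than 5 near-identical copies. At least 1.2-fold higher values were found at 0 of the 84, against 11.4% of all named loci. None of the 84 reached 2-fold, a size at which 4.24% of all named loci were lower and 1.04% higher. The loci just inside the 1.2-fold limit were Rps15a and Rps27, at −0.27 and −0.28, and those just outside were Rpl32 and Rps27a, both at −0.26.

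**Figure D1:**
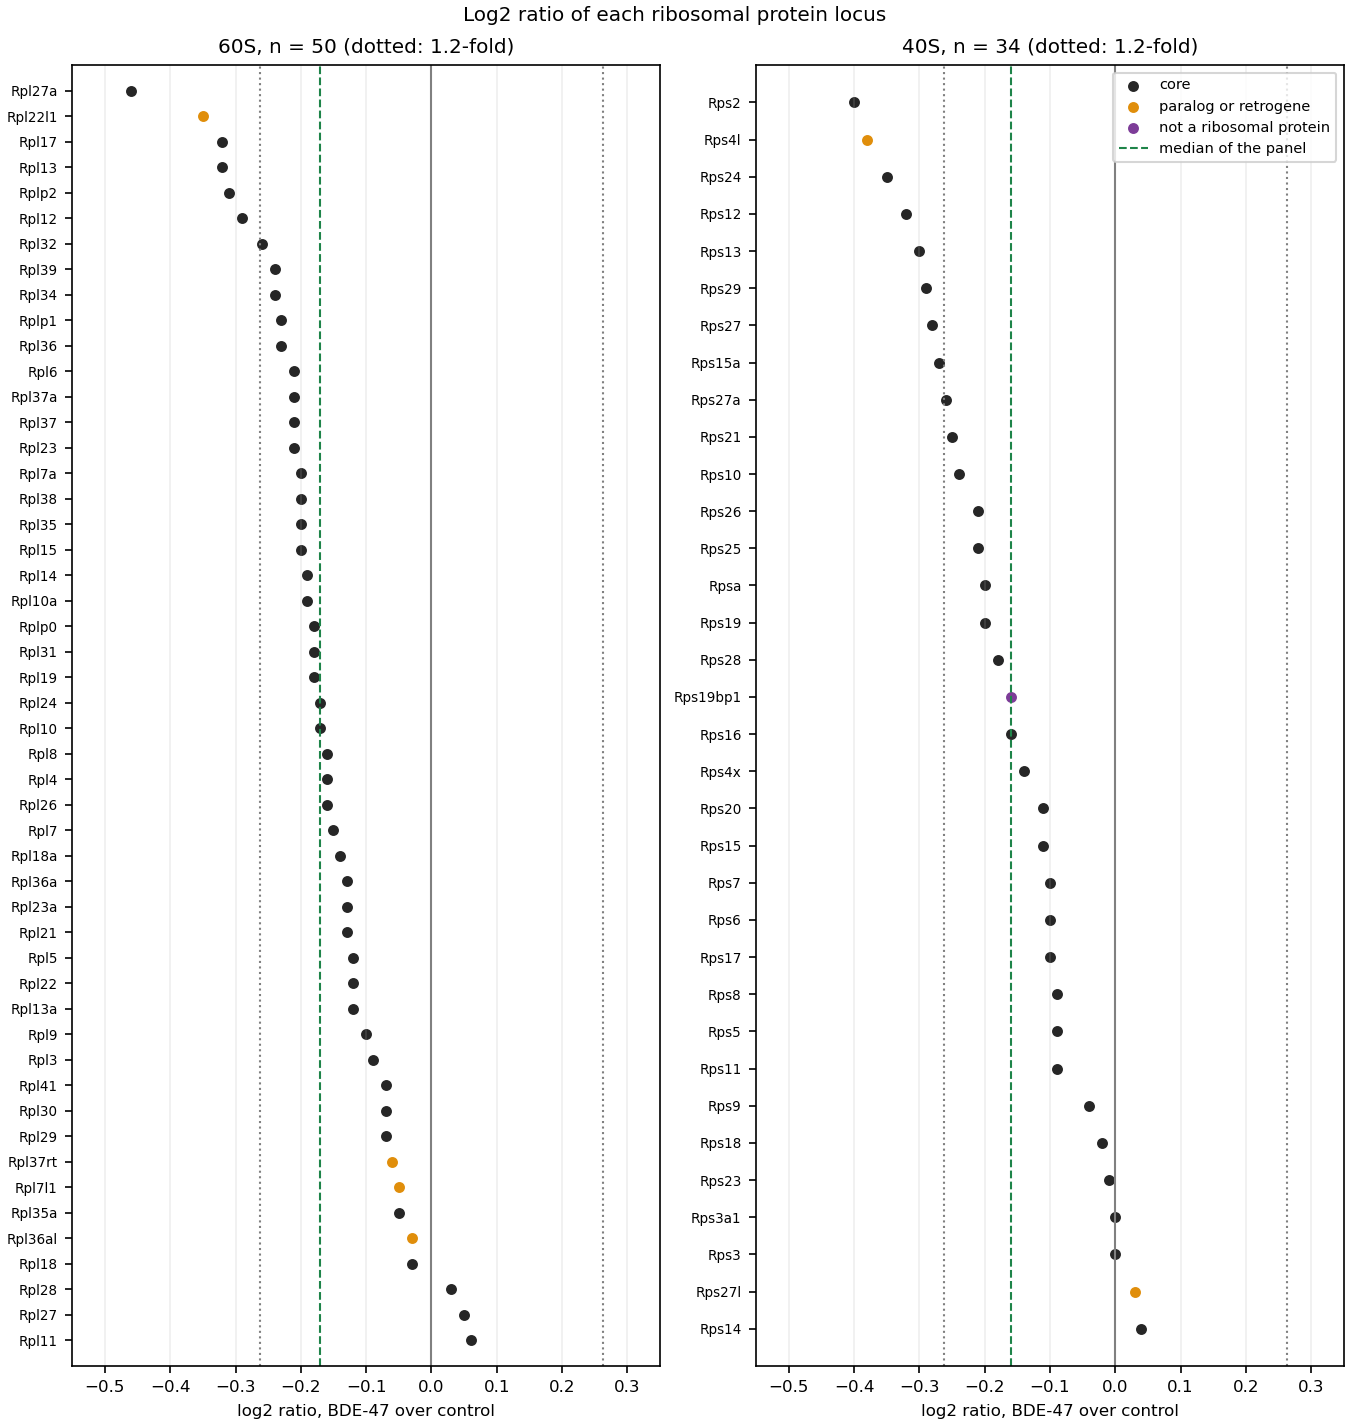
Log2 ratio (x axis, BDE-47 over control) for each ribosomal protein locus above 1 FPKM, 60S and 40S in separate panels, with dotted lines at 1.2-fold and a dashed line at the median of each panel; core genes are black, paralogs and retrogenes orange and Rps19bp1 purple. Most points lie to the left of 0, from −0.46 for Rpl27a to 0.06 for Rpl11. Below 0 are 77 of 84, and 66 of 84 when each group is rescaled to the sum of its FPKM, which moves all named loci by the same 0.087.

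Summed over the 77 core genes, the FPKM was 44511 in BDE-47 and 50159 in control, 11.3% lower. Core ribosomal proteins took 7.49% of all listed FPKM in BDE-47 and 7.95% in control. The sum over all loci itself was 594301 FPKM in BDE-47 and 631181 FPKM in control. In bulk tissue, less RNA per cell and a smaller share of the cells that carry most of it cannot be told apart.

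Levels differed widely between the genes. Over the 84 loci, values ran from 13.7 to 2120 FPKM in BDE-47 (median 465) and from 17.9 to 2230 FPKM in control (median 530). Among the 60S genes, Rpl41, which encodes the shortest ribosomal protein, stood at the top with 2120 FPKM in BDE-47 and 2226 FPKM in control (log2 ratio −0.07, and 0.017 after rescaling to the sum). It was followed by Rplp1, a stalk protein, with 1438 and 1687 FPKM in BDE-47 and control, and by Rpl38, which is known in mice for its part in the translation of Hox mRNAs, with 1361 and 1563 FPKM in BDE-47 and control. Among the 40S genes the top 3 were Rps12 (1252 FPKM in BDE-47 and 1563 FPKM in control), Rps29 (1209 and 1479 FPKM in BDE-47 and control) and Rps27 (1168 and 1418 FPKM in BDE-47 and control). All of these high genes had lower values in BDE-47, and the 3 from the 40S subunit were each at least 1.2-fold lower, but not after rescaling to the sum, where Rps12, Rps29 and Rps27 were at −0.23, −0.20 and −0.19.

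**Figure D2:**
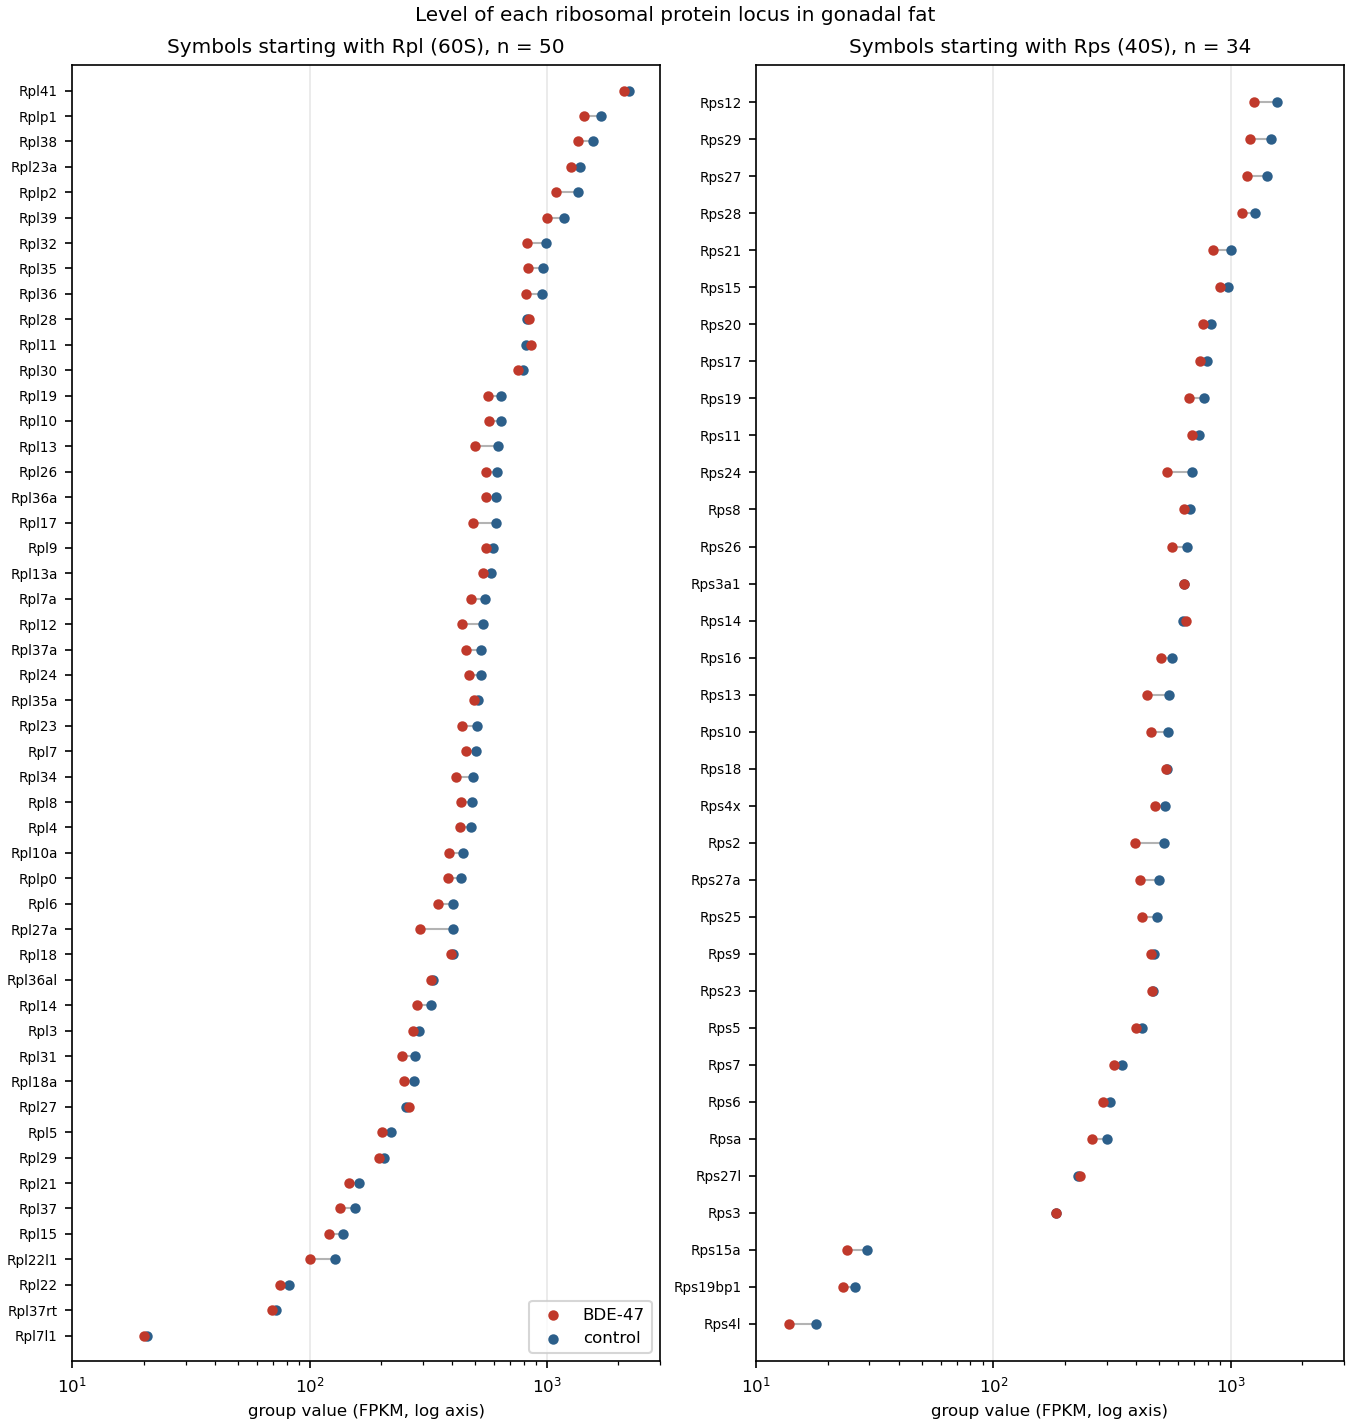
Group value of each ribosomal protein locus in FPKM on a log axis, with BDE-47 and control as separate points, 60S and 40S in separate panels. Rpl41 is highest at 2120 FPKM in BDE-47 and 2226 FPKM in control, and the control point lies to the right of the BDE-47 point for 77 of the 84 loci.

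Genes with short annotated transcripts tended to have the higher FPKM. The length used is that of 1 GENCODE coding transcript per gene, which need not be the transcript measured. Rps20 was given 3706 bases, for example, though its deposited locus spans 1.1 kb. Over the 77 core genes, Pearson's r between log2 level and log2 transcript length was −0.35 (Spearman's rho −0.47), a description across genes of the same libraries. The log2 ratio was not related to level in this way (r = −0.07, rho = −0.12), nor to transcript length (r = 0.08, rho = 0.12). Coding length had a median of 456 bases over the core genes, from 75 bases in Rpl41 to 1257 bases in Rpl4.

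Both subunits had lower values in BDE-47. Loci were assigned by symbol, Rpl to 60S and Rps to 40S, so Rpl37rt, Rps4l and Rps19bp1 are taken in. The median log2 ratio was −0.17 over the 50 loci under 60S, 47 of them lower in BDE-47. It was −0.16 over the 34 loci under 40S, 30 of them lower. Over core genes alone it was −0.175 for 46 of the 60S, 43 lower, and −0.16 for 31 of the 40S, 28 lower. At least 1.2-fold lower values were found at 6 of the 50 and at 8 of the 34, against 17.7% of all named loci. Among core genes they were found at 5 of the 46 and at 7 of the 31. The difference between the subunits was not tested.

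The lowest ratio of all belonged to Rpl27a, a 60S protein. It had 292 FPKM in BDE-47 and 401.7 FPKM in control, a log2 ratio of −0.46 or 27.3% lower. Its gene lies on chromosome 7 at 109519147 to 109522367 on the plus strand (GENCODE M21 on GRCm38, the assembly also called mm10). Next in the 60S subunit came the paralog Rpl22l1 (−0.35), Rpl17 and Rpl13 (both −0.32). Rpl17 lines the tunnel through which the new peptide leaves, and had 487.8 FPKM in BDE-47 and 608.9 FPKM in control. Rpl13 had 498 FPKM in BDE-47 and 621.7 FPKM in control.

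In the 40S subunit the lowest was Rps2, a protein at the channel where mRNA enters. It had 396.2 FPKM in BDE-47 and 522.8 FPKM in control, a log2 ratio of −0.40 or 24.2% lower, and its gene lies on chromosome 17 at 24718116 to 24721929 on the plus strand. By symbol, Rps4l followed at −0.38, which is annotated as a transcribed processed pseudogene. Then came Rps24 at −0.35 with 541.2 FPKM in BDE-47 and 689.8 FPKM in control, and Rps12 at −0.32. Rps24 is one of the genes mutated in human Diamond-Blackfan anaemia. The remaining loci at least 1.2-fold lower were Rplp2, Rps13, Rpl12, Rps29, Rps27 and Rps15a.

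At the other end, 5 loci had a higher value in BDE-47. Rpl11 had 855.1 FPKM in BDE-47 and 820.3 FPKM in control (0.06), and Rpl27 had 263.2 FPKM in BDE-47 and 254.2 FPKM in control (0.05). Rps14 followed at 0.04, and Rpl28 and Rps27l were both at 0.03. Rps3 and Rps3a1 were listed at the same value in both groups, 183.5 and 634.7 FPKM. The table is rounded to 0.01 on the log2 scale, and all 7 of these ratios lie within 0.06 of 0. Rescaled to the sum, 13 loci that were at or below 0 moved above it, namely Rpl18, Rpl29, Rpl30, Rpl35a, Rpl36al, Rpl37rt, Rpl41, Rpl7l1, Rps18, Rps23, Rps3, Rps3a1 and Rps9.

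The start of transcription is shown for the 4 lowest and the 4 highest of the single-name loci with an entry used here from the RefSeq promoter table (GRCm38.p6), because the pyrimidine run of a TOP mRNA lies there. Each sequence reads 5′ to 3′ on the gene's strand, from 20 bases before to 30 bases from the annotated start on, with the longest run of C and T in capitals. That run can lie anywhere in the window, before or after the start, and need not be a TOP motif. The lowest were Rpl27a (chr7:109519175-109519224, plus), Rps2 (chr17:24720043-24720092, plus), Rpl22l1 (chr3:28805488-28805537, plus) and Rps24 (chr14:24490658-24490707, plus). The highest were Rpl28 (chr7:4792945-4792994, plus), Rps27l (chr9:66946066-66946115, plus), Rpl27 (chr11:101442225-101442274, plus) and Rpl11 (chr4:136053364-136053413, minus).
Rpl27a: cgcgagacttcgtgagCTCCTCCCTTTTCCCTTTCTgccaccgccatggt
Rps2: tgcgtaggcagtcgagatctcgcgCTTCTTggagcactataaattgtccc
Rpl22l1: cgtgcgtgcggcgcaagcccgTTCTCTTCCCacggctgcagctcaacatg
Rps24: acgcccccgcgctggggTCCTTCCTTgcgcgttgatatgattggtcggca
Rpl28: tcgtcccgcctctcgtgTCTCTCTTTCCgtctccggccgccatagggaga
Rps27l: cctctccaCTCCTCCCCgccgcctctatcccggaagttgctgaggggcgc
Rpl27: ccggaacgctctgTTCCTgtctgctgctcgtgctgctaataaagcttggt
Rpl11: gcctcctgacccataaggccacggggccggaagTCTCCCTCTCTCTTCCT

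Long pyrimidine runs occurred at both ends of the ratio. The run was 20 bases in Rpl27a, with the lowest ratio, and 17 bases in Rpl11, with the highest, and it was 6 bases in Rps2 and 5 bases in Rpl27. The Rpl11 run began after the annotated start and reached the end of the window, so 17 bases is a minimum. In Rps27l and Rpl27 the run lay wholly before the annotated start. Of the 87 symbols, 65 had an entry in the promoter table. A run of at least 8 pyrimidines in this window was found in 31 of them, 47.7%, against 18.8% of all 27025 genes in the table. The median log2 ratio was −0.20 over the 31 loci with a run past the FPKM filter and −0.17 over the 31 without one.

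Other short motifs were searched on both strands of the whole entry, 250 bases before to 50 after the start. CCGGAAG, the letters bound by ETS family factors such as GABP, was found in 38.5% of the ribosomal protein promoters and in 9.12% of all promoters. AANATGGC, the YY1 motif, was found in 18.5% of the ribosomal protein promoters and in 6.23% of all promoters, and the GC box GGGCGG in 39 of the 65 ribosomal protein promoters and in 35.9% of all promoters. TATAAA was found in 9.23% of the ribosomal protein promoters and in 14.2% of all promoters. The median log2 ratio was −0.20 over the 24 loci with CCGGAAG and −0.165 over the 38 without it, so the shift was present in both.

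The ribosomal P-stalk recruits the translation factors that hydrolyse GTP. Rplp0 is its base, Rplp1 and Rplp2 are its mobile arms, and Rpl12 binds beside it. All 4 were lower in BDE-47, as were 77 of all 84 ribosomal protein loci, where 47.3% of all named loci were lower. Their median log2 ratio was −0.26 (−0.173 after rescaling to the sum). Their sum was 3353 FPKM in BDE-47 and 4012 FPKM in control, 16.4% lower. Rplp2 had 1090 FPKM in BDE-47 and 1351 FPKM in control (−0.31), and Rpl12 had 439.6 FPKM in BDE-47 and 537.5 FPKM in control (−0.29). Rplp1 was at −0.23. Rplp0, often used as a reference gene in quantitative PCR, had 385.3 FPKM in BDE-47 and 436.5 FPKM in control (−0.18).

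Rpl5 and Rpl11 form the 5S ribonucleoprotein particle, which also binds and inhibits Mdm2, the ubiquitin ligase of p53, when ribosome assembly is disturbed. The group values of these 2 genes differed in opposite directions, by small amounts. Rpl5 had 202.3 FPKM in BDE-47 and 219.8 FPKM in control (−0.12, and −0.033 after rescaling to the sum), in a deposited locus of 86.6 kb. Rpl11 had the highest ratio of all 84 loci (0.06, and 0.147 after rescaling). Their median was −0.03 (0.057 after rescaling to the sum).

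All 8 genes around the peptide exit site were lower in BDE-47, with a median log2 ratio of −0.18. Below Rpl17 at −0.32 stood Rpl39, a very small protein of the tunnel wall, with 1003 FPKM in BDE-47 and 1184 FPKM in control (−0.24). Rpl35 had 837.5 FPKM in BDE-47 and 962.1 FPKM in control (−0.20). Rpl19 and Rpl31 were both at −0.18, and Rpl26 was at −0.16. Rpl23a, the docking site of the signal recognition particle and of nascent chain factors, was at −0.13, and Rpl22 at −0.12. The direction was the same for all 8, as for 77 of all 84 ribosomal protein loci, where 47.3% of all named loci were lower. Rpl17 was the 1 locus that was at least 1.2-fold lower, against 17.7% of all named loci. After rescaling to the sum the median of the 8 was −0.093.

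The 4 proteins at the mRNA entry and decoding site had the widest range of these structural groups, −0.40 to 0.00. Rps2 was at the low end. Rps15, which reaches towards the decoding site, was at −0.11 with 903.9 FPKM in BDE-47 and 975.5 FPKM in control, and Rps23, a protein of the decoding centre, was at −0.01 with 467.9 FPKM in BDE-47 and 471.1 FPKM in control. Rps3, which has helicase activity on incoming mRNA, was at 0.00. Their median was −0.06 (0.027 after rescaling). At the mRNA exit, Rps26, Rpsa and Rps28 were lower in BDE-47 (−0.21, −0.20 and −0.18), and Rps14 was at 0.04. Rpsa, also known as the laminin receptor precursor, had 261.4 FPKM in BDE-47 and 300.2 FPKM in control. Rps26 had 568.1 FPKM in BDE-47 and 657.1 FPKM in control, and Rps28 had 1121 FPKM in BDE-47 and 1269 FPKM in control.

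Paralogs that replace or resemble a core protein were expressed at lower levels than most core genes. Rpl22l1, whose mRNA is repressed by Rpl22 in mice, had 100.4 FPKM in BDE-47 and 128 FPKM in control (−0.35). Rpl22 itself had 75.06 FPKM in BDE-47 and 81.57 FPKM in control (−0.12), so both were lower in BDE-47. The coding sequences of this pair are 70.1% identical. Rps27l, a p53 target that is 77.6% identical to Rps27, had 232.3 FPKM in BDE-47 and 227.5 FPKM in control (0.03), while Rps27 was at −0.28.

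Rpl36al, 87.9% identical to Rpl36a, had 326.3 FPKM in BDE-47 and 333.1 FPKM in control (−0.03). Rpl7l1, an assembly relative of Rpl7 at 59.0% identity, had 19.97 FPKM in BDE-47 and 20.68 FPKM in control (−0.05). Both ratios turned positive after rescaling to the sum. Rps19bp1 had 23.26 FPKM in BDE-47 and 25.99 FPKM in control (−0.16). Rps4l, annotated as a transcribed processed pseudogene, had 13.74 FPKM in BDE-47 and 17.88 FPKM in control (−0.38), but the deposited locus spans 396.9 kb.

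Tissue-restricted paralogs were near 0 FPKM in both groups and did not exceed 1 FPKM. Rpl3l, the striated muscle relative of Rpl3, had 0.351 FPKM in BDE-47 and 0.454 FPKM in control. The testis genes Rpl10l and Rpl39l had 0.0548 and 0 FPKM in BDE-47 and 0.0199 and 0.0703 FPKM in control. Fold changes at such levels were not interpreted.

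Some deposited loci hold more than the ribosomal protein gene. Rpl23a was joined with Snord42b and had 1261 FPKM in BDE-47 and 1380 FPKM in control (−0.13). Rpl13a was joined with Snord33 and Mir5121 and had 537.5 FPKM in BDE-47 and 584.1 FPKM in control (−0.12). Their median of −0.125 lay close to that of the 80 loci with 1 name, −0.175. Rpl30 was joined with Gm12191 (−0.07), and Rpl37rt, a retrogene, shared its locus with Acads, an enzyme of fatty acid oxidation (−0.06). At these loci the reads of the joined genes cannot be separated.

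By the GENCODE annotation, 30 of the core genes hold 58 small nucleolar RNA genes within their bounds. Their median log2 ratio was −0.185, with 28 lower and 2 equal, and that of the 47 other core genes was −0.17, with 43 lower and 4 higher. At least 1.2-fold lower values were found at 8 of the 30 and at 4 of the 47, where 17.7% of all named loci were that much lower, and the difference was not tested. Core genes were spread over 19 chromosomes, with 14 on chromosome 7 and 4 on the X chromosome. The 4 on the X chromosome had a median of −0.155.

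Processed copies limit how precisely these genes can be counted. Transcripts with at least 95% identity over at least 90% of the coding length were found for 74 of the 77 core genes, 559 in all, with a median of 5 and a maximum of 56 for Rpl21. Rpl27a had 11, Rps2 and Rps12 had 22 each, and Rps3 had 0. Across genes, the log2 ratio had only a weak correlation with the number of copies (r = −0.10, rho = −0.09). The 38 core genes with over 5 copies had a median of −0.18, and the 39 with up to 5 copies a median of −0.16. At least 1.2-fold lower values were found at 9 of the 38 and at 3 of the 39, against 17.7% of all named loci. The values of genes with near-identical copies, Rpl27a, Rps2 and Rps12 included, are uncertain to the extent that reads can be assigned to either.

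Other abundant genes had a smaller median shift and a smaller share of lower values, but not a smaller share at least 1.2-fold lower. Among loci of 300 FPKM or more, 65 ribosomal protein loci had a median of −0.18 with 93.8% lower in BDE-47, and 194 other named loci had a median of −0.075 with 61.3% lower. At least 1.2-fold lower were 16.9% of these ribosomal protein loci and 18.6% of these other loci. From 1000 FPKM on, the medians were −0.235 for 10 ribosomal protein loci and −0.055 for 42 others. Other loci of 300 FPKM or more with a short coding transcript (1000 bases or less, 60 loci) had a median of −0.115 with 75.0% lower in BDE-47, between the 2 sets. The corresponding long transcripts (105 loci) had a median of −0.04. After rescaling to the sum, the median of the other loci of 100 FPKM or more was 0.057 and that of the ribosomal protein loci −0.078. These are descriptions of 1 pair of group values, and no list was tested against another.

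**Figure D3:**
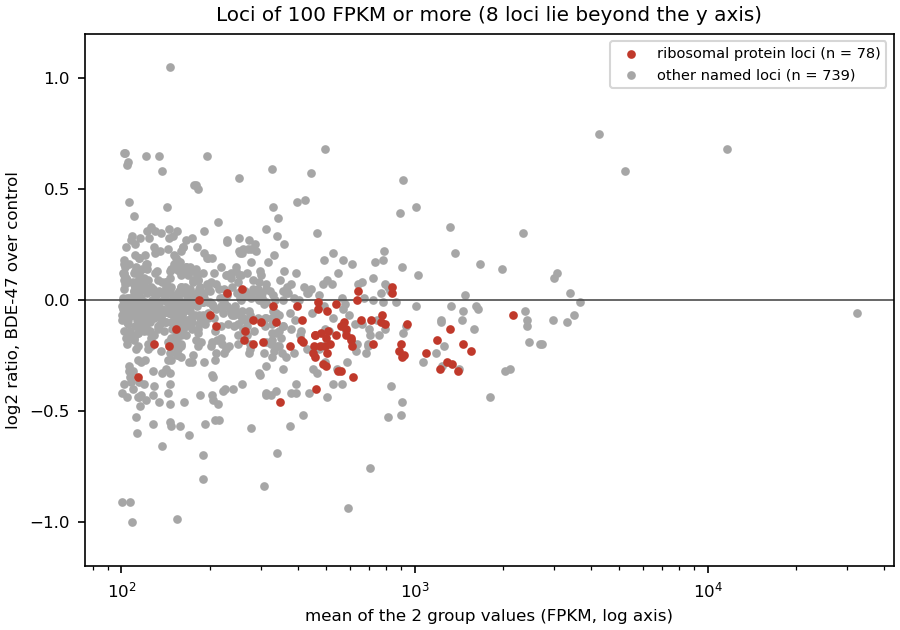
Log2 ratio (y axis, BDE-47 over control) against mean FPKM on a log axis for loci of 100 FPKM or more, with ribosomal protein loci marked among other named loci; 8 loci lie beyond the y axis. The 78 ribosomal protein loci form a narrow band (median −0.17) inside the wider cloud of 739 other loci (median −0.03, and 0.057 after rescaling each group to its sum).

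**Figure D4:**
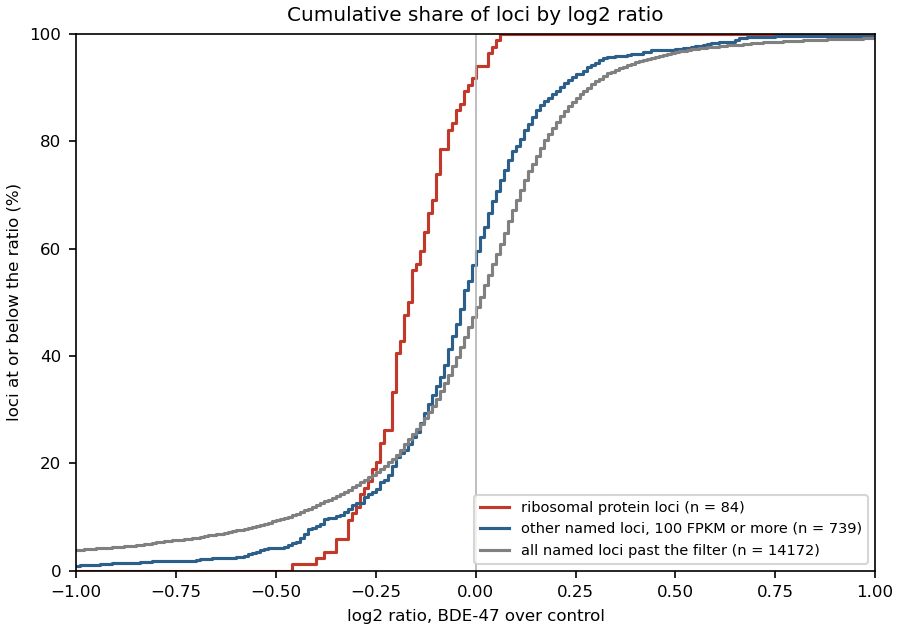
Cumulative share of loci against the log2 ratio (BDE-47 over control), for ribosomal protein loci, other named loci of 100 FPKM or more and all named loci. The ribosomal protein curve is steeper than the others and lies to their left over its upper part, with its median at −0.165 and its end at 0.06, where the median of all named loci is 0.01; rescaling each group to its sum moves every curve to the right by 0.087.

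Other genes of the translation pathway did not carry the shift as a whole. The 6 elongation factors had a median log2 ratio of −0.03, with Eef1a1, which brings aminoacyl-tRNA to the ribosome, at 2336 FPKM in BDE-47 and 2419 FPKM in control (−0.05), and Eef2, the translocase, at 498 FPKM in BDE-47 and 474.4 FPKM in control (0.07). The initiation factor list of 40 genes had a median of 0.00, with 20 higher and 20 lower in BDE-47. That list also holds Eif4ebp1 and Eif4ebp2, which are no initiation factors themselves. Eif4ebp1, the mTOR substrate that binds the cap-binding protein eIF4E, had 390.7 FPKM in BDE-47 and 430.5 FPKM in control (−0.14), and Eif1, a scanning factor, had 317.4 FPKM in BDE-47 and 306.6 FPKM in control (0.05).

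The 21 other genes with TOP mRNAs lay between, with a median of −0.08, 15 lower, 4 higher and 2 equal (median 0.007 after rescaling to the sum). Of them, 9 were also on the elongation or initiation factor lists, and the other 12 had a median of −0.09. Tpt1, a growth-related TOP gene, had 1520 FPKM in BDE-47 and 1663 FPKM in control (−0.13). Fau, which encodes a fusion with a 40S protein, and Gnb2l1, the 40S scaffold Rack1, are ribosomal components that the symbol rule misses, and both were at −0.20.

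Genes that build the ribosome were mostly higher in BDE-47. The 63 ribosome biogenesis genes had a median of 0.07, with 47 higher and 16 lower in BDE-47, where 50.8% of all named loci were higher and 47.3% lower. At least 1.2-fold higher values were found at 6 of the 63, near the 11.4% of all named loci, and at least 1.2-fold lower values at 0, against 17.7%. Polr1d, a subunit of RNA polymerases I and III, had 97.01 FPKM in BDE-47 and 91.14 FPKM in control (0.09), and Nop10, of the box H/ACA particles, had 80.45 FPKM in BDE-47 and 84.45 FPKM in control (−0.07). The 77 mitochondrial ribosomal proteins had a median of 0.02, with 42 higher and 35 lower. Mrps21 had 268.7 FPKM in BDE-47 and 263.2 FPKM in control (0.03), and Mrps6, in a locus joined with Slc5a3, had 142 FPKM in BDE-47 and 168.9 FPKM in control (−0.25). Long noncoding hosts of small nucleolar RNAs had a median of 0.06 over 14 loci. Among them Gas5, also a TOP RNA, was at 0.08 and Snhg8 at −0.28.

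**Figure D5:**
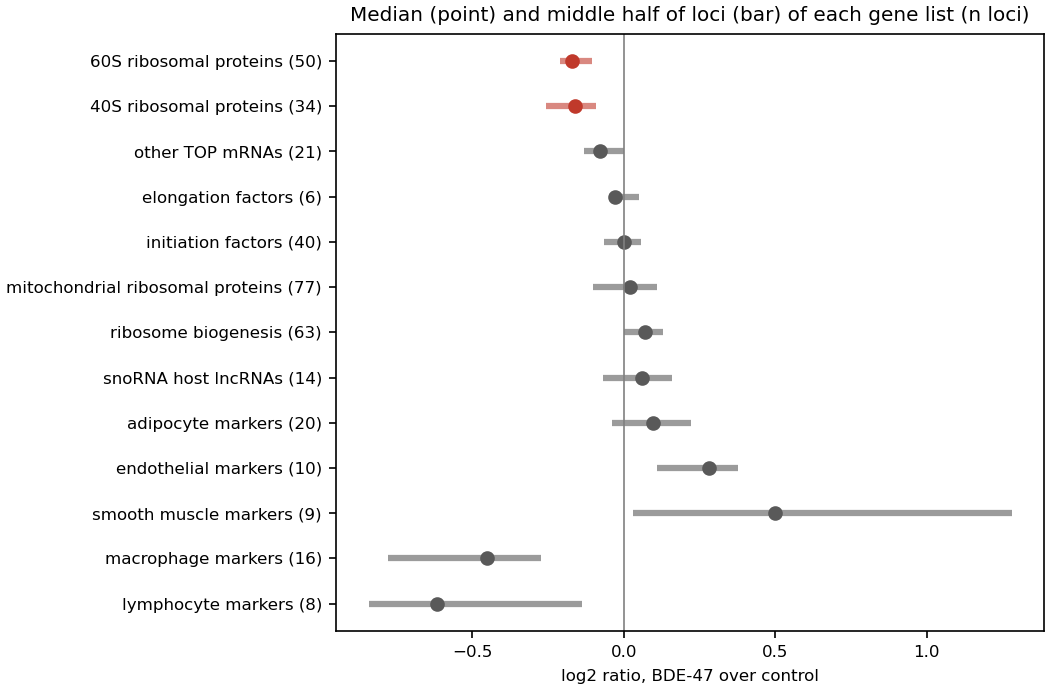
Median log2 ratio (point, BDE-47 over control) and interquartile range (bar) for the 60S and 40S genes (assigned by symbol), the translation lists and cell type markers, with the number of loci beside each name. The 60S genes lie at −0.17, the 40S genes at −0.16 and the ribosome biogenesis genes at 0.07; rescaling each group to its sum adds 0.087 to every list, which turns the other TOP mRNAs (−0.08) and elongation factors (−0.03) positive.

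The cell type markers of the tissue also differed between the group values. Adipocyte markers were present at high levels, with 13 of 20 higher in BDE-47, against 50.8% of all named loci. Their median was 0.095, with sums of 56700 FPKM in BDE-47 and 55400 FPKM in control. Fabp4, the adipocyte fatty acid carrier, had 31650 FPKM in BDE-47 and 33000 FPKM in control. Cfd, which encodes adipsin, had 6252 FPKM in BDE-47 and 4182 FPKM in control, and without it the adipocyte sums were 50425 FPKM in BDE-47 and 51268 FPKM in control. Macrophage markers were lower in 15 of 16 (median −0.45), where 47.3% of all named loci were lower. Their sums were 1120 FPKM in BDE-47 and 1770 FPKM in control. The joined locus of Lyz1 and Lyz2 alone had 522.8 FPKM in BDE-47 and 885.3 FPKM in control. Lymphocyte markers had a median of −0.615 over 8 loci, with 6 lower and the T cell markers Cd3e and Cd3g higher, at 0.76 and 0.71. Endothelial and smooth muscle markers had medians of 0.28 over 10 loci and 0.50 over 9 loci. Of 3 skeletal muscle loci past the filter, 2 were higher and 1 lower. The lower was Acta1, with 28.64 FPKM in BDE-47 and 120.3 FPKM in control (−2.07). Of 4 erythroid loci, 2 were higher and 2 lower. All 20 hepatocyte markers were lower in BDE-47, with a median of −3.885 and sums of 246 FPKM in BDE-47 and 1070 FPKM in control. Most of the BDE-47 sum came from the locus of Serpina1a, joined with its relatives. It had 178.5 FPKM in BDE-47 and 247.3 FPKM in control (−0.47). Alb, which encodes albumin, had 24.59 FPKM in BDE-47 and 362 FPKM in control. Epididymis markers summed to 0.679 FPKM in BDE-47 and 45.5 FPKM in control, with 8 of 16 listed at 0 in BDE-47 (Cst11, Defb20, Defb28, Defb38, Defb41, Lcn8, Lcn9 and Spag11a) and 3 of 16 in control (Cst8, Defb41 and Lcn9). Only 6 of the 16 exceeded 1 FPKM in a group, all lower in BDE-47. Of those at 0, only Defb28 and Defb38 did, where 90 of all 14262 named loci past the filter were at 0 in 1 group. Cst8, Gpx5 and Spag11b were higher in BDE-47, at under 1 FPKM in both groups. The part of these cell type markers in the lower ribosomal protein values was not tested.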

How the data were processed

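The authors isolated poly(A) RNA, sequenced single-end libraries, aligned reads using TopHat2 (mm10) and used Cufflinks 2.1.1 for transcript assembly and Cuffdiff 2.1.1 for the group comparison, as stated in the study's methods and in the submitters' processing notes. For the gene annotation, strandedness, reads with several positions and library scaling, the settings were not given in the sources used here. Deposited values are log2 FPKM, 1 value per locus and group, with 0 FPKM listed at −10. The authors' own log2 ratio, q-value and significance columns were not used. 1 line of the table was empty, and 0 columns of single pups were left unused.

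FPKM was recovered as 2 to the power of the deposited log2 value. The log2 ratio is BDE-47 minus control, with no pseudocount, over named loci above 1 FPKM in at least 1 group. A symbol in several loci took the one with the highest mean FPKM. Joined loci were kept and described apart. No test was run, since each group has 1 value, and thresholds of 1.2-fold and 2-fold are sizes only. Of the 14262 loci, 90 were at 0 in 1 group and entered counts but no median, and 419 carried several names. The counting script was checked on simulated data. Gene bounds, lengths and small nucleolar RNAs came from GENCODE M21, copies from BLAST 2.17.0, and starts from RefSeq (GRCm38.p6). Python 3.11.15, pandas 2.3.3, numpy 2.4.6 and matplotlib 3.10.9 were used.

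The genes named were, per subunit, the 4 highest and 4 lowest ratios of single-name loci and the 3 highest levels, all members of the structural lists, paralogs, joined loci and members under the filter, and the 2 most abundant genes of the other lists. Fau, Gnb2l1, Rpl4, Rpl32 and Rps27a and other members in counts were named after their values were seen. Members and lists were chosen with earlier results of these data known. Alternatives were other filters, 1 added FPKM, 3 other scalings, other choices of locus and members, and, chosen after seeing the data, leaving out wide loci and genes with many copies.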

Additional observations from a re-analysis of the deposited data

How the results depend on the processing

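The median log2 ratio of the ribosomal protein loci stayed below 0 under all 11 alternatives, from −0.18 to −0.078, as did the medians of the 60S loci (−0.18 to −0.083) and the 40S loci (−0.17 to −0.073). Rescaling each group to the sum of its FPKM added 0.087 to every ratio. The number of loci higher in BDE-47, 5 in the report, was 18 under that rescaling and 9 with ratios centred on other loci of 100 FPKM or more. The number at least 1.2-fold lower, 14 in the report, was 5 under the rescaling. Without members that have more than 5 near-identical copies, an alternative chosen after seeing the data, 46 loci were left, of which 3 were higher and 5 at least 1.2-fold lower. With no filter on FPKM, 1 locus was at least 1.2-fold higher and 1 changed at least 2-fold, both times Rpl10l, at under 0.1 FPKM in both groups. The ratios of the 40 named genes moved by less than 0.1 under 7 settings, which was largely fixed by the settings themselves. A filter leaves the ratio of a gene unchanged, and the largest shift by a scaling was 0.087. No paired analysis was possible because the table holds 1 value per group, and for the same reason no pup could be left out. The depth of the libraries is unknown, so the error of each value could not be given.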

Other observations

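Symbols left out by the rule were also measured. Among the Rps6k kinases, which are regulators and no ribosomal subunits, Rps6kb1, the kinase that phosphorylates RPS6, had 34.1 FPKM in BDE-47 and 31.6 FPKM in control (log2 ratio 0.11), and Rps6kb2 had 15.2 FPKM in BDE-47 and 15.3 FPKM in control (−0.01). Rps6ka3 had 70 FPKM in BDE-47 and 66.7 FPKM in control (0.07), and Rps6ka1 had 4.56 FPKM in BDE-47 and 6.15 FPKM in control (−0.43). Rps6kl1 had the lowest ratio of these, with 0.927 FPKM in BDE-47 and 2.97 FPKM in control (−1.68). Of the symbols with -ps, Rpl14-ps1 had 1.12 FPKM in BDE-47 and 0.785 FPKM in control, and Rps19-ps3, in a locus joined with Zfp933, had 3.32 FPKM in BDE-47 and 4.41 FPKM in control.

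For Rpl13a and Rpl17 the table held a second entry at the same coordinates as the first. The second Rpl17 entry had 1.25 FPKM in BDE-47 and 2.03 FPKM in control (−0.70), and the second Rpl13a entry had 2.13 FPKM in BDE-47 and 2.73 FPKM in control (−0.36). Deposited loci wider than 50 kb were listed for 6 members, Rps15 (672.3 kb), Rpl38 (413.4 kb), Rps4l (396.9 kb), Rpl39 (246.4 kb), Rpl31 (110.9 kb) and Rpl5 (86.6 kb), and may take in reads from other transcripts in the interval, which was not tested. Without them the median of the remaining 78 loci was −0.16, an alternative chosen after seeing the data.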
